A study of Mus musculus with 6 samples.

Results

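The homeostatic microglia genes P2ry12, Tmem119, Cx3cr1, Csf1r, Gpr34, Olfml3, Fcrls, Sall1, Slc2a5 and Mertk were examined in whole brain of SOD1-G85R transgenic and wild-type (WT) mice. They were chosen by name, as known markers of resting microglia, and all 10 were present among the 770 genes of the panel. RNA from 3 SOD1-G85R transgenic and 3 wild-type samples, all C57BL/6 and labelled day 10, was measured by NanoString, which counts colour-coded probes bound to RNA without amplification. The transgene carries G85R, a mutation of superoxide dismutase 1 found in familial amyotrophic lateral sclerosis (ALS). The sources used here name neither the promoter, copy number and line of the transgene nor the event from which the days were counted, and they do not state that each sample was a separate animal. The p-values therefore measure only the spread between these samples, which may be partly technical. Within each genotype the Y-linked signal given below differed, so its samples were not all from the same animal.

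Microglia are the resident macrophages of the brain parenchyma. In the healthy brain they carry a surveillance programme of receptors for nucleotides, fractalkine, colony-stimulating factor and lysophospholipids, which is maintained by transforming growth factor beta and by the transcription factor Sall1. Microglia that respond to injury, degeneration or interferon are known in mice to lower many of these genes while they raise complement, phagocytic and antigen-presenting genes. In mouse models of ALS the homeostatic set is a common readout of microglial state.

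1 sample stood apart. Across 712 genes, SOD1-G85R replicate 2 had log2 correlations of 0.824 to 0.834 with the other samples, against 0.956 to 0.984 among those 5 samples, where genes are not independent replicates. Its interferon response genes had a median difference of 4.92 from the WT mean on the log2 scale, and the Y-linked gene Uty gave 466 normalized counts there, against 7.85 and 10.2, the lowest value of each sample, in SOD1-G85R replicates 1 and 3. Uty was at 684, 478 and 11.2 in WT replicates 1, 2 and 3. The members' fold changes are given with and without SOD1-G85R replicate 2.

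A normalized count is the deposited value of a gene in a sample after the authors' scaling. Every member lay above the lowest value of each sample, which is shared by several genes and was read as a floor. Divided by the value of 1 count in that sample, the members rested on 45 to 1369 implied counts. Levels of different genes are not compared, because probe efficiencies and lengths differ. Fold changes are SOD1-G85R minus WT on the log2(normalized count + 1) scale from limma, and a gene was called at an adjusted p (Benjamini-Hochberg over all genes tested) of 0.05. Whole brain cannot tell fewer microglia apart from less RNA of a gene per microglial cell.

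No homeostatic gene was called between the genotypes. The members differed among themselves instead, and they did so mainly in SOD1-G85R replicate 2. Fcrls, P2ry12 and Slc2a5 lay below all other samples there. In the deposited scaling Tmem119, Cx3cr1, Csf1r, Olfml3 and Mertk lay above all other samples. For Mertk the WT replicate 2 value lay within the counting error of SOD1-G85R replicate 2. For Slc2a5 the counting error of that sample overlapped that of SOD1-G85R replicate 1. In SOD1-G85R replicates 1 and 3 the fractalkine receptor Cx3cr1, the microglial membrane protein Tmem119 and the phagocytic receptor Mertk were below every WT sample, by amounts that did not pass the test. For Cx3cr1 and Tmem119 the lowest WT value lay within the counting error of replicate 3. Without SOD1-G85R replicate 2, 4 members were lower without overlap, against 16.2% of all genes tested.

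Of the 10 members, 0 were called by limma with all 6 samples (adjusted p from 0.39 to 0.998), against 0% of the 712 genes tested. At an unadjusted p of 0.05 it was 0 members, against 16.3% of all genes. The fold change was below 0 for 8 members, one of them Csf1r at -0.00, against 37.4% of all genes. The median over the members was -0.11 and that over all genes was 0.15. The list was described only, since its members were named with earlier results of these data known.

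**Figure D1:**
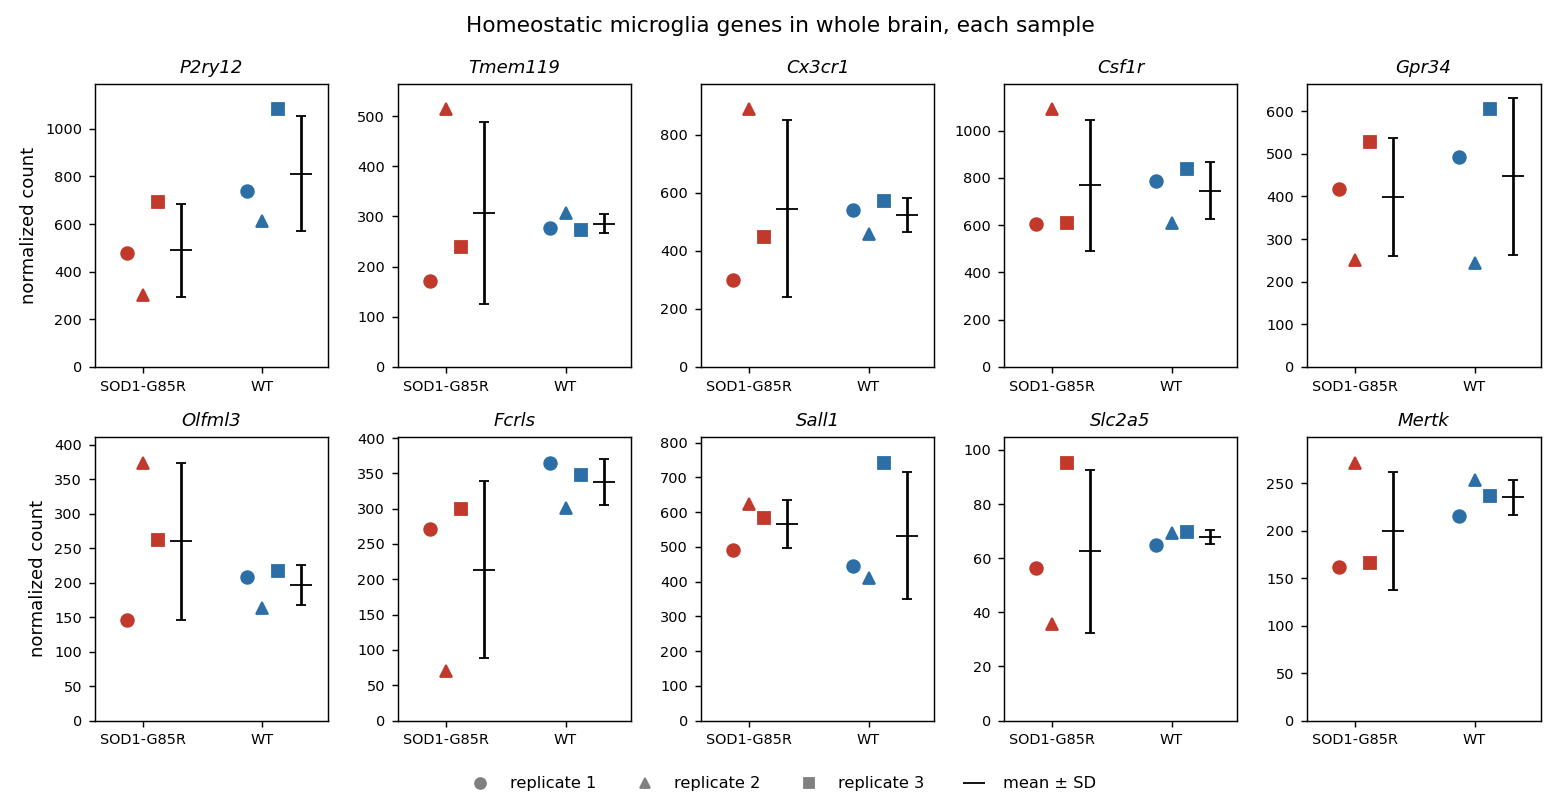
Normalized counts of each homeostatic microglia gene (y axis, linear from 0) in the 3 SOD1-G85R and 3 WT samples, 1 panel a gene. Points are samples, marked by replicate, and black bars are the mean ± SD (n = 3 each). SOD1-G85R replicate 2 (triangle) is below all 5 other samples for P2ry12, Fcrls and Slc2a5 and above all 5 for Tmem119, Cx3cr1, Csf1r, Olfml3 and Mertk.

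Promoter sequence is shown for a pair of members that were below all other samples in SOD1-G85R replicate 2, P2ry12 and Slc2a5, and for a pair that were above them, Cx3cr1 and Olfml3. RefSeq promoters (GRCm38.p6) were matched for 7 of the 10 members, with 9 windows in all, and the 250 bases before each listed transcript start were searched on both strands. Of these windows 6 end where the annotated gene begins, while the Fcrls window (241 of its 250 bases) and 2 of the Sall1 windows lie inside the gene, before an internal transcript start, and are not shown. The motifs were the PU box GAGGAA of the myeloid factor PU.1 and the interferon-stimulated response element (GAAA and GAAA with 2 bases between). The gamma-activated sequence (TTC and GAA with 3 bases between) was also searched. The last was a loose form of the MEF2 site, CTA and TAG with any 4 bases between. Capitals mark a match, and the sequences run 5′ to 3′ on the gene's strand, which is plus for Slc2a5 and minus for the others.
P2ry12, chr3:59262986-59263235: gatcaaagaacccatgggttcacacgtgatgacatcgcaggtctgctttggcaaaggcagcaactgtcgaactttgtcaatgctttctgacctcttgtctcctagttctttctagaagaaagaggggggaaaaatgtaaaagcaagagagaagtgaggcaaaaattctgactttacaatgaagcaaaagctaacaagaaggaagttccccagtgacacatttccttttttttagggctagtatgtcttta
Slc2a5, chr4:150119094-150119343: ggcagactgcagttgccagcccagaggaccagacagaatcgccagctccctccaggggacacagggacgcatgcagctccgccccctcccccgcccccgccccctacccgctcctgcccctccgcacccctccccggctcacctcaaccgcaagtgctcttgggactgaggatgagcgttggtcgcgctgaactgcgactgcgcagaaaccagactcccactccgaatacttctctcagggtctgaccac
Cx3cr1, chr9:120068297-120068546: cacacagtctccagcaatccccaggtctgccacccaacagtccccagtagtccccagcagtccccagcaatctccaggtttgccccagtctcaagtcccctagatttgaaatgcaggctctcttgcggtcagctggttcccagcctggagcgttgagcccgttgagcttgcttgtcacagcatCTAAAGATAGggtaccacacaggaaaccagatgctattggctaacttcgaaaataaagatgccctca
Olfml3, chr3:103738002-103738251: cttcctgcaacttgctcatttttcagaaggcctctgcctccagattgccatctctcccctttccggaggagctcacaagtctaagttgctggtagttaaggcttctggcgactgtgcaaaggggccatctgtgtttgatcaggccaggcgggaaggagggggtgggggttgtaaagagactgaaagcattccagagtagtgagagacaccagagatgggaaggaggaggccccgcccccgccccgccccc

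The PU box was found in 1 of the 9 member windows, that of Fcrls, where it starts at position -144 from an internal transcript start and so within the annotated gene, and in 23.3% of all 32851 windows. The loose MEF2 pattern, which reads alike on both strands, was found in the Cx3cr1 window at position -67 and in 3.20% of all windows. Its 4 middle bases in Cx3cr1 were AAGA, and no stricter form of the site was searched. Neither interferon motif was found in a member window, while 2.98% and 7.02% of all windows held the response element and the gamma-activated sequence. A match describes letters only, and no binding was measured.

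Fcrls encodes an Fc receptor-like scavenger protein that marks microglia in mice. It had 272, 70.1 and 299.7 normalized counts in SOD1-G85R replicates 1, 2 and 3, against 365, 300.69 and 348 in WT replicates 1, 2 and 3. All SOD1-G85R samples were below all WT samples, but replicate 3 by less than 1 count, and replicate 2 was far below the rest. It averaged 214 ± 125 in SOD1-G85R and 338 ± 33.1 in WT (SD, n = 3 each), and its log2 fold change was -0.91 (SE 0.57, limma adjusted p = 0.483). Without SOD1-G85R replicate 2 the fold change was -0.24 (SE 0.23, limma adjusted p = 0.683). Fcrls was the 1 member whose groups did not overlap, against 9.97% of all genes tested that were lower without overlap, and 0 members were higher without overlap, against 17.0% of all genes.

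P2ry12 encodes the ADP receptor that steers microglial processes toward released nucleotides. It had 476, 302 and 692 normalized counts in SOD1-G85R replicates 1, 2 and 3, against 739.6, 614 and 1081 in WT replicates 1, 2 and 3. SOD1-G85R replicates 1 and 2 were below all WT samples, while replicate 3 was within the WT range. The means were 490 ± 195 in SOD1-G85R and 812 ± 242 in WT (SD, n = 3 each), and the log2 fold change was -0.77 (SE 0.37, limma adjusted p = 0.39). Without SOD1-G85R replicate 2 it was -0.46 (SE 0.31, limma adjusted p = 0.515).

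Relative to the WT mean, SOD1-G85R replicate 2 held 4.82-fold less Fcrls and 2.69-fold less P2ry12. Ranked by that difference on the log2 scale, Fcrls was the lowest and P2ry12 was number 3 from the lowest of the 712 genes in that sample. Slc2a5 was number 13 and Gpr34 number 29. The Fcrls value rested on 88 implied counts, for which the exact Poisson 95% interval was 56.2 to 86.3 normalized counts and covers counting error only. That interval does not reach the lowest value of any other sample.

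Gpr34, a receptor for lysophosphatidylserine on the X chromosome, had 417, 251 and 527 normalized counts in SOD1-G85R replicates 1, 2 and 3, against 493, 244 and 604 in WT replicates 1, 2 and 3. The lowest sample of each genotype was replicate 2. The groups overlapped over nearly their whole range, with a log2 fold change of -0.13 (SE 0.44, limma adjusted p = 0.882) with all samples and 0.17 (SE 0.37) without SOD1-G85R replicate 2.

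Slc2a5, the fructose transporter GLUT5, had 56.5, 35.8 and 95.2 normalized counts in SOD1-G85R replicates 1, 2 and 3, against 64.9, 69.4 and 69.5 in WT replicates 1, 2 and 3. The SOD1-G85R samples lay on both sides of a narrow WT range, with replicate 3 highest and replicate 2 lowest of all 6. The exact Poisson 95% interval of SOD1-G85R replicate 2, 26.1 to 47.9, overlapped that of SOD1-G85R replicate 1, 42.3 to 73.9, but that of no WT sample. The SD was 30.1 in SOD1-G85R and 2.65 in WT, and the log2 fold change was -0.23 (SE 0.36, limma adjusted p = 0.8), or 0.11 (SE 0.27) without SOD1-G85R replicate 2.

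Cx3cr1 encodes the receptor for fractalkine, a signal displayed by neurons. It had 300.4, 887 and 447 normalized counts in SOD1-G85R replicates 1, 2 and 3, against 540.3, 457 and 571 in WT replicates 1, 2 and 3. Replicate 2 was the highest of all samples, and SOD1-G85R replicates 1 and 3 were both below the lowest WT sample. The exact Poisson 95% interval of SOD1-G85R replicate 3, 399 to 500, held the lowest WT value. The means were 545 ± 305 in SOD1-G85R and 523 ± 59.3 in WT (SD, n = 3 each), with a log2 fold change of -0.08 (SE 0.41, limma adjusted p = 0.932). Without SOD1-G85R replicate 2 it was -0.50 (SE 0.26, limma adjusted p = 0.372).

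Tmem119, a transmembrane protein used to tell microglia from blood-derived macrophages, had the same order among SOD1-G85R samples. It had 170.5, 514 and 239 normalized counts in SOD1-G85R replicates 1, 2 and 3, against 277, 308 and 273 in WT replicates 1, 2 and 3. Replicate 2 again stood above all other samples, and the other SOD1-G85R samples stood below all WT samples. The exact Poisson 95% interval of SOD1-G85R replicate 3, 204 to 278, held the lowest WT value. The log2 fold change of Tmem119 was -0.05 (SE 0.41, limma adjusted p = 0.958), and -0.50 (SE 0.25, limma adjusted p = 0.327) without SOD1-G85R replicate 2.

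Csf1r is the receptor for CSF1 and IL-34 on which microglial survival depends. It had 604, 1090.0 and 610.8 normalized counts in SOD1-G85R replicates 1, 2 and 3, against 789, 610.4 and 839 in WT replicates 1, 2 and 3. Replicate 2 was the highest sample, and SOD1-G85R replicates 1 and 3 were level with the lowest WT sample. The means were 768 ± 279 in SOD1-G85R and 746 ± 120 in WT (SD, n = 3 each), and the log2 fold change was -0.00 (SE 0.30, limma adjusted p = 0.998), or -0.28 (SE 0.25) without SOD1-G85R replicate 2.

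Mertk, a receptor tyrosine kinase for the clearance of dying cells that astrocytes also express, had 162, 272 and 166 normalized counts in SOD1-G85R replicates 1, 2 and 3. It had 216, 253 and 237 in WT replicates 1, 2 and 3. SOD1-G85R replicates 1 and 3 were below all WT samples and replicate 2 was above them. The exact Poisson 95% interval of SOD1-G85R replicate 2, 243 to 302, held the WT replicate 2 value. The exact Poisson 95% interval of SOD1-G85R replicate 3, 137 to 199, overlapped that of WT replicate 1, 191 to 243. The log2 fold change was -0.27 (SE 0.26, limma adjusted p = 0.628), and -0.51 (SE 0.23, limma adjusted p = 0.271) without SOD1-G85R replicate 2, the smallest adjusted p among the members in that fit.

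Olfml3, a secreted olfactomedin-like protein, had 146, 373 and 261 normalized counts in SOD1-G85R replicates 1, 2 and 3, against 209, 163 and 217 in WT replicates 1, 2 and 3. Its SOD1-G85R samples lay on both sides of the WT range. The log2 fold change was 0.32 (SE 0.37, limma adjusted p = 0.692), and 0.01 (SE 0.30) without SOD1-G85R replicate 2.

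Sall1, the zinc-finger factor that upholds microglial identity and is also made by neural progenitors in mice, had 490.1, 624 and 582 normalized counts in SOD1-G85R replicates 1, 2 and 3. It had 445, 409 and 741 in WT replicates 1, 2 and 3. All SOD1-G85R samples were inside the WT range, with a log2 fold change of 0.13 (SE 0.28, limma adjusted p = 0.828) and 0.06 (SE 0.30) without SOD1-G85R replicate 2.

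**Figure D2:**
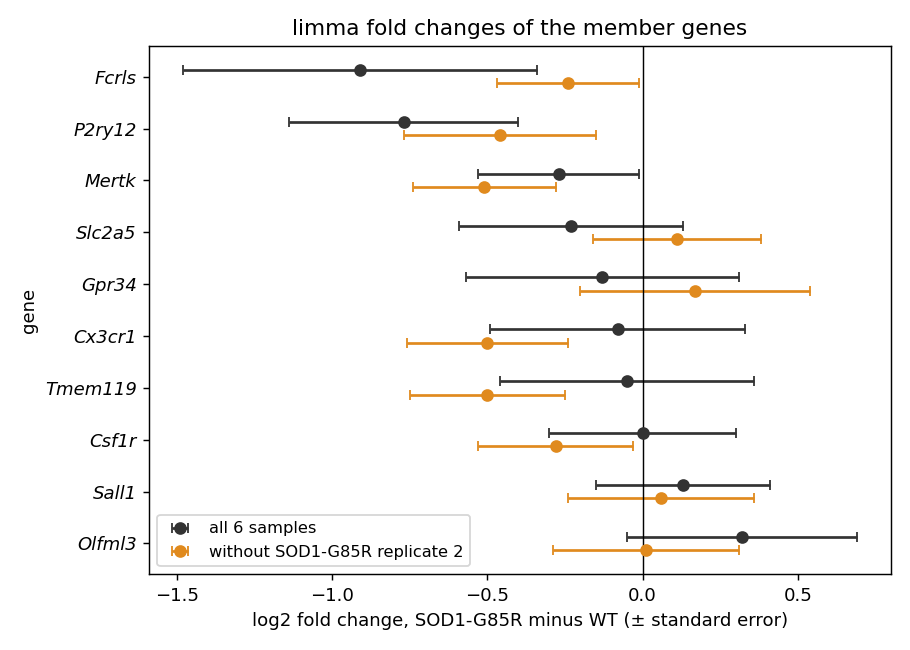
Log2 fold change, SOD1-G85R minus WT, of each member from limma (x axis), with all 6 samples in black and without SOD1-G85R replicate 2 in orange, and bars of ± 1 standard error. Fcrls stands at -0.91 and -0.24, while Cx3cr1 and Tmem119 stand at -0.08 and -0.05 with all samples and at -0.50 each without that sample.

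Without SOD1-G85R replicate 2, limma called 0 members, against 1.40% of the genes tested, and 0 at an unadjusted p of 0.05, against 18.4%. The fold change was below 0 for 6 members, against 49.3% of all genes, and their median was -0.26 against 0.01 for all genes. The groups did not overlap in 4 members, Cx3cr1, Tmem119, Mertk and Fcrls, each lower in SOD1-G85R, against 16.2% of all genes that were lower without overlap. In that comparison both SOD1-G85R samples had Uty at the floor. The Uty values were 684 and 478 in WT replicates 1 and 2, and 11.2 in WT replicate 3, near its floor of 8.05. The part of this imbalance in the members' values was not tested. No member was higher without overlap (0 members, against 19.7% of all genes). SOD1-G85R replicate 1 was below the WT mean in all 10 members, though Gpr34 differed by -0.00, and SOD1-G85R replicate 3 in 6.

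The members spread widest around the WT mean in SOD1-G85R replicate 2, a sample in which the panel as a whole stood apart. Among all genes tested the highest log2 difference there was 7.99, for Cxcl10. The spread over all genes is not given here, so a wide spread is not a trait shown to be particular to the members. On the log2 scale the members' differences ran from -2.25 to 0.94 in that sample, with an SD across members of 1.09. The SD was 0.28 and 0.34 in SOD1-G85R replicates 1 and 3 and 0.13, 0.26 and 0.22 in WT replicates 1, 2 and 3. That sample was above all 5 others in 5 members, against 45.9% of all genes tested. It was below all 5 others in 3 members, against 9.69% of all genes.

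The direction of the higher members in that sample depended on the scaling. In the deposited scaling the median difference of all genes from the WT mean was 0.32 there, and centring each sample on its own median moved it to -0.43. Under that centring P2ry12 was at -2.13, Slc2a5 at -1.65 and Gpr34 at -1.48. Olfml3, Tmem119 and Cx3cr1 were then at 0.19, 0.10 and 0.02, and Csf1r at -0.19, Sall1 at -0.47 and Mertk at -0.54 had turned below the WT mean. Quantile normalization gave -3.27 for Fcrls, which was the lowest of all genes tested in each scaling. Fcrls, P2ry12, Slc2a5 and Gpr34 were below the WT mean in that sample in all 4 scalings that were run.

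**Figure D3:**
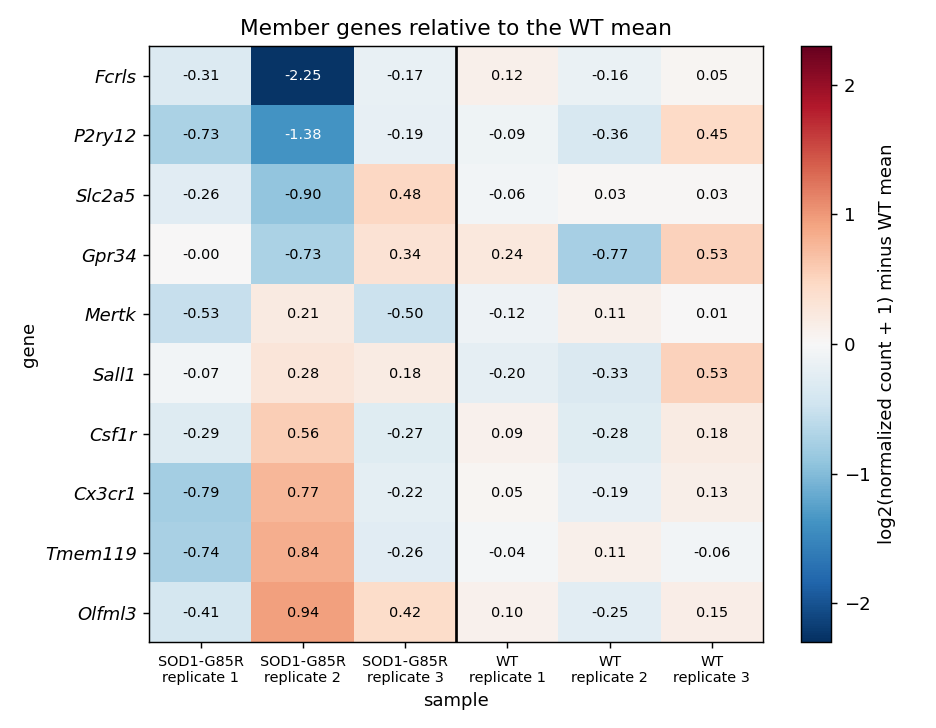
Difference of each sample from the WT mean on the log2(normalized count + 1) scale (colour and printed value), for each member (rows, ordered by SOD1-G85R replicate 2) and sample (columns, SOD1-G85R left of the line). SOD1-G85R replicate 2 runs from -2.25 for Fcrls to 0.94 for Olfml3, a wider range than in any other sample.

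Genes of the pathways on which the homeostatic state rests were read from the same fit. Of the 11 listed ligands and partners 6 were measured and tested, 1 with a fold change below 0 and 5 above (median 0.20), and 0 were called. With SOD1-G85R replicate 2 left out, 5 were below and 1 above (median -0.08), again with 0 called. Cx3cl1, the fractalkine that Cx3cr1 binds, had 1232, 1377 and 1552 normalized counts in SOD1-G85R replicates 1, 2 and 3, against 2250, 1903 and 2186 in WT replicates 1, 2 and 3. Every SOD1-G85R sample, replicate 2 included, was below every WT sample, as in 9.97% of all genes tested. The log2 fold change was -0.61 (SE 0.19, limma adjusted p = 0.224), and -0.61 (SE 0.24, limma adjusted p = 0.209) without SOD1-G85R replicate 2. Of the 6 neuron markers measured, 4 had a fold change below 0 and 2 above, with a median of -0.30 and 0 called, and without SOD1-G85R replicate 2 it was 5 below and 1 above, with a median of -0.36. Slc17a7, a vesicular glutamate transporter, and Nefl, a neurofilament, had log2 fold changes of -0.84 and -0.58, and Dlg4 and Syp, of the synapse, at -0.33 and -0.27. Rbfox3, the nuclear marker NeuN, stood at 0.06, and Tubb3, a neuronal tubulin, at 0.14. For Tubb3 every SOD1-G85R sample was above every WT sample, as in 17.0% of all genes tested. The part of neuronal RNA in the Cx3cl1 difference was not tested.

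Csf1, a ligand of Csf1r, had 154, 722 and 227 normalized counts in SOD1-G85R replicates 1, 2 and 3, against 189.8, 211 and 196 in WT replicates 1, 2 and 3. Tgfb1, the cytokine that maintains the homeostatic programme, had 152, 594 and 210.2 in SOD1-G85R replicates 1, 2 and 3, against 129, 202 and 161 in WT replicates 1, 2 and 3. Both were high in SOD1-G85R replicate 2 alone, at 3.63 and 3.62 times the WT mean. The log2 fold changes were 0.56 (SE 0.56) for Csf1 and 0.72 (SE 0.52) for Tgfb1, and -0.08 and 0.15 without that sample. Tgfbr1, a receptor of that cytokine, and Axl, a relative of Mertk, were also highest there, at 877 and 1302 normalized counts against WT means of 582 ± 156 and 627 ± 116 (SD, n = 3). Their log2 fold changes were 0.20 each (SE 0.31 and 0.41), and -0.02 and -0.23 without that sample. Pros1, a Mertk ligand, averaged 178 ± 33.1 in SOD1-G85R and 173 ± 50.9 in WT (SD, n = 3 each), with a log2 fold change of 0.07 (SE 0.28), and -0.07 (SE 0.29) without that sample.

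Other genes attributed to homeostatic microglia gave 5 measured members, of which 4 passed the filter, 1 below and 3 above 0 with all samples (median 0.15) and 4 below 0 without SOD1-G85R replicate 2 (median -0.23), with 0 called in either. In SOD1-G85R replicate 2 their median was 1.03 above the WT mean, which hides a split. There 3 of the 4 were above all 5 other samples, against 45.9% of all genes tested. The remaining gene, Mef2c, was at -0.80 and below all 5, against 9.69% of all genes. Mef2c, a transcription factor of microglia that neurons also express, averaged 7682 ± 1844 in SOD1-G85R and 10149 ± 1987 in WT (SD, n = 3 each), and Slco2b1, an organic anion transporter, was at 127, 349.5 and 159 in SOD1-G85R replicates 1, 2 and 3 and between 133 and 168 in WT. The log2 fold change was -0.41 for Mef2c and 0.35 for Slco2b1, and -0.22 and -0.09 without SOD1-G85R replicate 2.

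Genes shared by microglia and other myeloid cells stood higher than the homeostatic set in SOD1-G85R replicate 2. All 14 measured members of the lineage list were above all 5 other samples there, against 45.9% of all genes tested. The lineage median was 2.53 above the WT mean on the log2 scale, where the homeostatic median was 0.25. The summed signal of the lineage genes was 34727 normalized counts in that sample, 4461 and 4925 in SOD1-G85R replicates 1 and 3, and 4479 to 6241 in WT. Tyrobp, the adaptor of Trem2, had 716, 3742 and 794 in SOD1-G85R replicates 1, 2 and 3, against 874, 564 and 920 in WT replicates 1, 2 and 3. The summed signal of the 10 homeostatic members was 3094, 4418 and 3920 in SOD1-G85R replicates 1, 2 and 3, against 4138, 3429 and 4980 in WT replicates 1, 2 and 3, and replicate 2 lay within the WT range. With all samples the lineage median fold change was 0.70, with 14 of 14 members above 0, and 0 were called. It was -0.26 without SOD1-G85R replicate 2, with 12 of 14 below 0, and 0 were called.

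**Figure D4:**
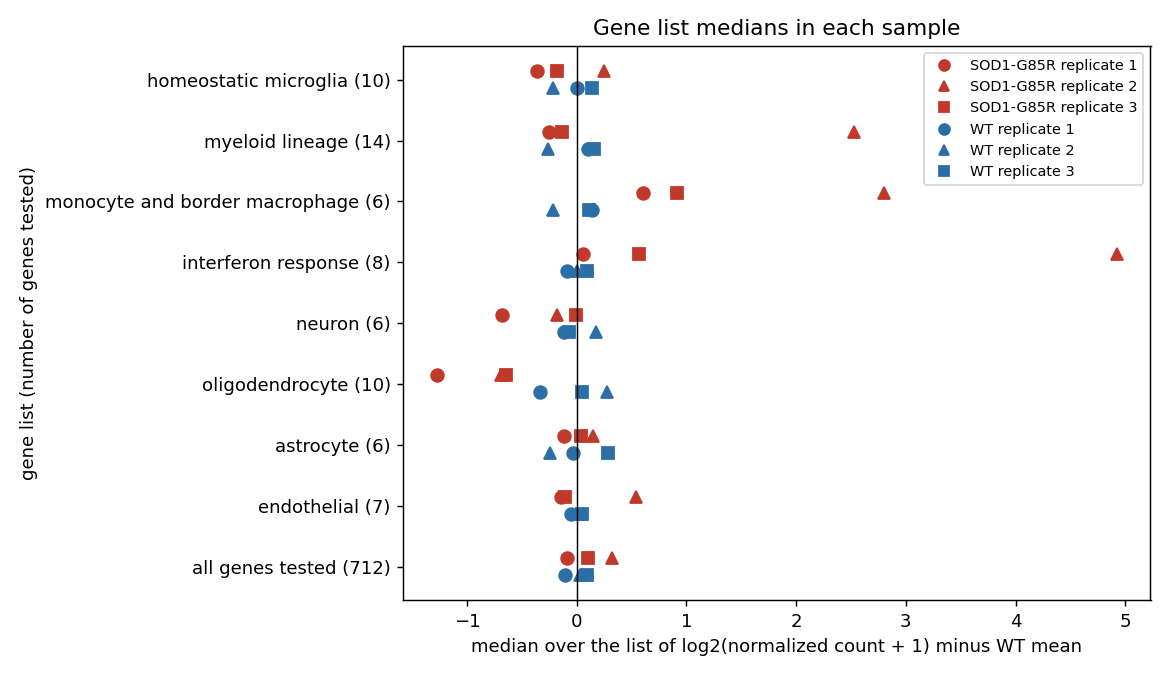
Median over each gene list (rows, number of genes tested in brackets) of the difference from the WT mean on the log2 scale (x axis), with 1 point a sample. SOD1-G85R replicate 2 (red triangle) stands at 0.25 for the homeostatic genes and at 2.53 for the myeloid lineage genes, while the other SOD1-G85R samples stand between -0.36 and -0.13 for both lists.

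Markers of cells that can enter the brain were present in the same sample. Of 7 measured monocyte and border macrophage genes, 6 were highest in SOD1-G85R replicate 2, as were 45.9% of all genes tested. The list's summed signal was 286, 1381 and 362 normalized counts in SOD1-G85R replicates 1, 2 and 3 and 152 to 231 in WT. Ccr2, the chemokine receptor of inflammatory monocytes, had 36.2, 235 and 49.7 in SOD1-G85R replicates 1, 2 and 3 and between 22.2 and 24.0 in WT. Cd163, a marker of border macrophages, was instead at 24.7 in replicate 2, below all other samples. Of 13 measured T and NK cell genes 11 were highest in replicate 2, against the same 45.9%, but only 3 of the 13 passed the filter. Their sums were 208, 1103 and 343 in SOD1-G85R replicates 1, 2 and 3 and 135 to 187 in WT. Of the 13 genes, 5 were at the floor in all WT samples at once. Others were at the floor in WT replicate 1 or 2, so floor values make up part of the WT sums. The neutrophil list had 2 measured genes. Csf3r, the receptor for granulocyte colony-stimulating factor, had 33.0, 153 and 73.9 in SOD1-G85R replicates 1, 2 and 3, against 22.2, 36.2 and 46.3 in WT replicates 1, 2 and 3, and was highest in SOD1-G85R replicate 2. Ly6g, a defining surface marker of mouse neutrophils, had 22.4, 14.3 and 27.0 in SOD1-G85R replicates 1, 2 and 3, against 8.87, 13.4 and 11.2 in WT replicates 1, 2 and 3, with WT replicates 1 and 2 at the floor. Ly6g was thus lowest of the SOD1-G85R samples in replicate 2. The part of these cells in the myeloid and homeostatic values was not tested.

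The tissue label was checked on markers of the main brain cell types. Summed signal in SOD1-G85R samples against WT samples was 22343 to 30233 against 28629 to 35807 for 6 neuron genes and 27452 to 36918 against 52434 to 69810 for 10 oligodendrocyte genes. It was 15468 to 16197 against 13273 to 20993 for 6 astrocyte genes and 2253 to 4136 against 2355 to 2868 for 7 endothelial genes. Brain markers were thus present in every sample, and no defining member of the homeostatic set was at the floor in any sample.

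The panel genes whose pattern over the 6 samples was most like the median of the centred members were Mdm2, Gdpd2, Prkar2a, Atg14 and Rpa1, with Pearson's r of 0.92, 0.89, 0.89, 0.89 and 0.87 (n = 6, given as a description of the 5 highest among all genes tested). Without SOD1-G85R replicate 2 the values were 0.84, 0.97, 0.65, 0.96 and 0.86. Since the members went opposite ways in that sample, their median hides the split.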

How the data were processed

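Whole-brain RNA was homogenised, digested with proteinase K and extracted, per the labels' protocols. The authors deposited 1 normalized signal value for each of 770 genes and 6 samples. The sources used here name neither the software nor the scaling genes nor any background rule. In each sample 100% of the values above the lowest were whole multiples of 1 step within 0.1 count, and the lowest value, shared by 10 to 59 genes, was read as a floor. Implied total counts were 468719 to 1022648 in SOD1-G85R and 689748 to 970301 in WT. The floor kept count tests out. Sod1 was not analysed here.

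Genes above 20 in at least 3 samples (712) were tested with limma 3.58.1 in R 4.3.3 (lmFit, eBayes, two-sided, no covariate) on log2(value + 1). No pair of samples within a group agreed within counting noise (lowest chi-square per degree of freedom 24.2). The members and lists were chosen with earlier results of these data known, and the motifs after seeing the values. All members, all measured ligands and partners, up to 3 genes of smallest p or defining markers of each other list (all 6 for neurons, a choice made after their values were seen), and the 5 genes of most similar pattern were named. Alternatives covered scaling, filter, pseudocount, variance, weights, a replicate block and each left-out sample. Of the panel's symbols, 763 were current in the RefSeq GRCm38.p6 table, and all 10 members matched. Figures were drawn with matplotlib 3.10.9.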

Additional observations from a re-analysis of the deposited data

How the results depend on the processing

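No member was called by limma under any of the 19 alternatives run (0 members in each, smallest adjusted p = 0.143), and the median over the members stayed between -0.31 and -0.00, within 1 SD (0.26) of the spread between samples. P2ry12, Fcrls and Mertk stayed below 0 and Olfml3 above 0 in all 19, but leaving out 1 sample gave ranges of -1.06 to -0.46 for P2ry12, -1.28 to -0.24 for Fcrls, -0.51 to -0.14 for Mertk and 0.01 to 0.68 for Olfml3. SOD1-G85R replicate 2 was the sample left out at -0.46, -0.24, -0.51 and 0.01. With the replicate block the members' median was -0.11 and the panel had 0 calls. The replicate numbers share deviations of 0.23, 0.09 and 0.10 (correlations), too low to pair the samples. Leaving out 1 sample gave 0 to 10 calls over the panel, with 10 only without SOD1-G85R replicate 2, and ranges of -0.50 to 0.29 for Tmem119, -0.50 to 0.28 for Cx3cr1, -0.28 to 0.14 for Csf1r, -0.52 to 0.17 for Gpr34, -0.03 to 0.40 for Sall1 and -0.58 to 0.11 for Slc2a5. Both Tmem119 and Cx3cr1 were above 0 without SOD1-G85R replicate 1. Sall1 was -0.07 with samples centred on their medians, -0.01 after quantile normalization and -0.10 with sample weights, and Slc2a5 was 0.21 with those weights, which gave 52 calls over the panel. In the fits added after seeing the data, without SOD1-G85R replicate 2, the panel had 80 calls when centred on sample medians and 10 when centred on housekeeping genes or quantile normalized. In that order Gpr34 was 0.23, 0.18 and 0.25, and Slc2a5 was 0.17 and 0.12 in the first and second. The cause was not tested. Slc2a5, at 45 implied counts in 1 sample, has the least depth of the members.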

Other observations

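Genes that mark disease-associated microglia in mice were also read in these samples. Of 9 measured genes 6 passed the filter and 0 were called by limma. At an unadjusted p of 0.05 it was 2 of the 6, against 16.3% of all genes, and without SOD1-G85R replicate 2 it was 2, against 18.4%. In both fits these were Clec7a and Ch25h. Of the 6, 0 had a fold change below 0 (median 1.17), against 37.4% of all genes. Without SOD1-G85R replicate 2 it was 1 (median 0.45), against 49.3%. In SOD1-G85R replicate 2 itself, 5 of the 6 were above all 5 other samples and 1 was below them, against 45.9% and 9.69% of all genes. Clec7a, a lectin receptor of responding microglia, had 24.5, 154 and 27.0 normalized counts in SOD1-G85R replicates 1, 2 and 3, against 10.3, 13.4 and 11.99 in WT replicates 1, 2 and 3. Ch25h, which makes 25-hydroxycholesterol, had 27.7, 127 and 28.4 in SOD1-G85R replicates 1, 2 and 3, against 8.87, 16.1 and 10.39 in WT replicates 1, 2 and 3. No WT sample reached the filter's level of 20 for either gene, and both passed it through the SOD1-G85R samples alone, which fixed their direction. No conclusion is therefore drawn from the counts or medians of this list.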
